A study of Mus musculus with 13 samples.

Results

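The VEGF and angiopoietin signalling genes described here are Vegfa, Vegfb, Kdr, Flt1, Nrp1, Nrp2, Angpt1, Angpt2, Tek and Tie1, chosen by name as ligands and receptors of both systems. They are 10 of the 26264 genes listed for each library. RNA was taken from right ventricles of wild-type mice (6 libraries) and of mice with the Dsg2 F536C knock-in (7 libraries), a substitution in desmoglein 2, the cadherin of the desmosomes that join cardiomyocytes. The series uses these mice as a model of arrhythmogenic cardiomyopathy and asks about PPAR-gamma. The labels give no zygosity, age, sex, litter or drug treatment for these libraries and leave unsaid whether every library is its own animal. All p-values therefore rest on the spread among libraries, part of which may be technical.

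VEGF ligands are secreted factors that bind receptor tyrosine kinases on endothelial cells, and in the heart cardiomyocytes are a main source of them. Angiopoietin 1, made by perivascular and mesenchymal cells, activates the receptor encoded by Tek and keeps vessels quiescent, whereas angiopoietin 2, released by endothelial cells, acts on the same receptor as a weak or context-dependent ligand and is known from vessel remodelling. Neuropilins are co-receptors of VEGF and of class 3 semaphorins.

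Vegfa and Vegfb were the most abundant members and had different outcomes in knock-in, so the 250 bases before the annotated start of each are shown. They are from RefSeq on GRCm38.p6, matched by symbol, and 8 of the 10 members have an entry in that table. The Vegfa window is chr17:46032378-46032627 and the Vegfb window chr19:6987652-6987901, both on the minus strand and upstream of the gene. Capitals mark the core of the hypoxia response element, searched as ACGTG and GCGTG on both strands.
Vegfa: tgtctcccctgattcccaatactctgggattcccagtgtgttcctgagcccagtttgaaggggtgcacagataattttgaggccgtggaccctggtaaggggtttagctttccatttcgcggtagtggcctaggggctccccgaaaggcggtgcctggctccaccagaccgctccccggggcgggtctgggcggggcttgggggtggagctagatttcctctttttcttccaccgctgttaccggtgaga
Vegfb: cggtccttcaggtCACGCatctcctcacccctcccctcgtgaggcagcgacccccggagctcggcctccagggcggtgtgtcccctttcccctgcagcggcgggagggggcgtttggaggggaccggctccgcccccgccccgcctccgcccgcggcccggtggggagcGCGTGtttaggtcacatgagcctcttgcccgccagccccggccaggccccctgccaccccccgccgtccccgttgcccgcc
The Vegfa window held 0 matches and the Vegfb window 2 matches to GCGTG, starting 237 and 81 bases before the start of the gene. A second Vegfa start is listed, whose window (chr17:46025164-46025413, not shown) held 2 matches, 1 to ACGTG and 1 to GCGTG. That window lies downstream of the first start, inside the gene, so its matches are not upstream of the gene as a whole. The count for Vegfa thus depends on the start used, and the windows of both starts are unlike in position. Of all 32851 promoter windows of this length, 38.6% held at least 1 match. GC content was 59.2% for Vegfa and 76.4% for Vegfb, against a median of 52.4% over all windows. A match in these letters is a description and not a binding site. Bases outside these windows were not searched, so 0 matches in a window does not show that a gene lacks the element. The matches were not tested against the outcomes in knock-in.

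Totals were 14498336 to 29848597 reads per library. Knock-in 4, 5 and 6 stood apart: fractional read numbers made up 10.2% to 10.7% of their genes and 3.07% to 3.79% in the other 10 libraries, and summed TPM of 6 epithelial markers was 1760 to 2987 against at most 32.5. Values are therefore given for all 13 libraries and for the 10 without these 3. Xist, the RNA of the inactive X chromosome, was above 100 CPM in wild type 1, 4 and 5 and knock-in 1, 3 and 7, and none of knock-in 4, 5 and 6 was among these. Dsg2 was at 84.3 to 116 CPM in wild type and 33.4 to 61.9 CPM in knock-in, and these reads do not show the substitution. Cardiomyocyte markers summed to 82330 to 113900 TPM in wild type and 47470 to 81030 TPM in knock-in, with 9 of 9 lower with 13 libraries and 8 of 9 with 10. None of the 13 pan-endothelial or 9 cardiomyocyte markers was at 0 in any group.

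On TMM-scaled CPM, knock-in ventricles had less Vegfb than any wild-type library in all 7 libraries and more Angpt2 in knock-in 1, 2, 3 and 7. On TPM, Vegfb overlapped through knock-in 3 (335 TPM) and wild type 5 (330.3 TPM), and Angpt2 was above every wild-type library in all 7. The share of all genes without overlap on TPM was not computed. On log2(TPM + 1), 7665 genes were called higher and 1087 lower with 13 libraries (limma). The Angpt2 to Angpt1 ratio, chosen with the members' values known, was higher in all 7. Relative to Angpt1, 7.54% of all tested genes did not overlap in either direction with 13 libraries. All 10 members passed the filter on low counts. With 13 libraries 2 members, Nrp2 and Angpt2, were called higher, 1, Vegfb, was called lower and 7 were not called (edgeR quasi-likelihood test, adjusted p under 0.05 over all genes). Across all 14588 tested genes 44.6% were called (23.6% higher and 21% lower), so the share of members called was not above the background. Vegfb was 1 of 10 members whose CPM did not overlap between groups, against 19.1% of genes (8.6% higher and 10.5% lower). With 10 libraries 1 member, Angpt2, was higher and 1, Vegfb, lower, against 43.7% of 14518 genes (22.3% higher and 21.3% lower). Both were without overlap, as were 29.8% of genes. The median log2 fold change of the members was -0.08 and 0.09, and that of all tested genes 0.08 and 0.02.

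**Figure D1:**
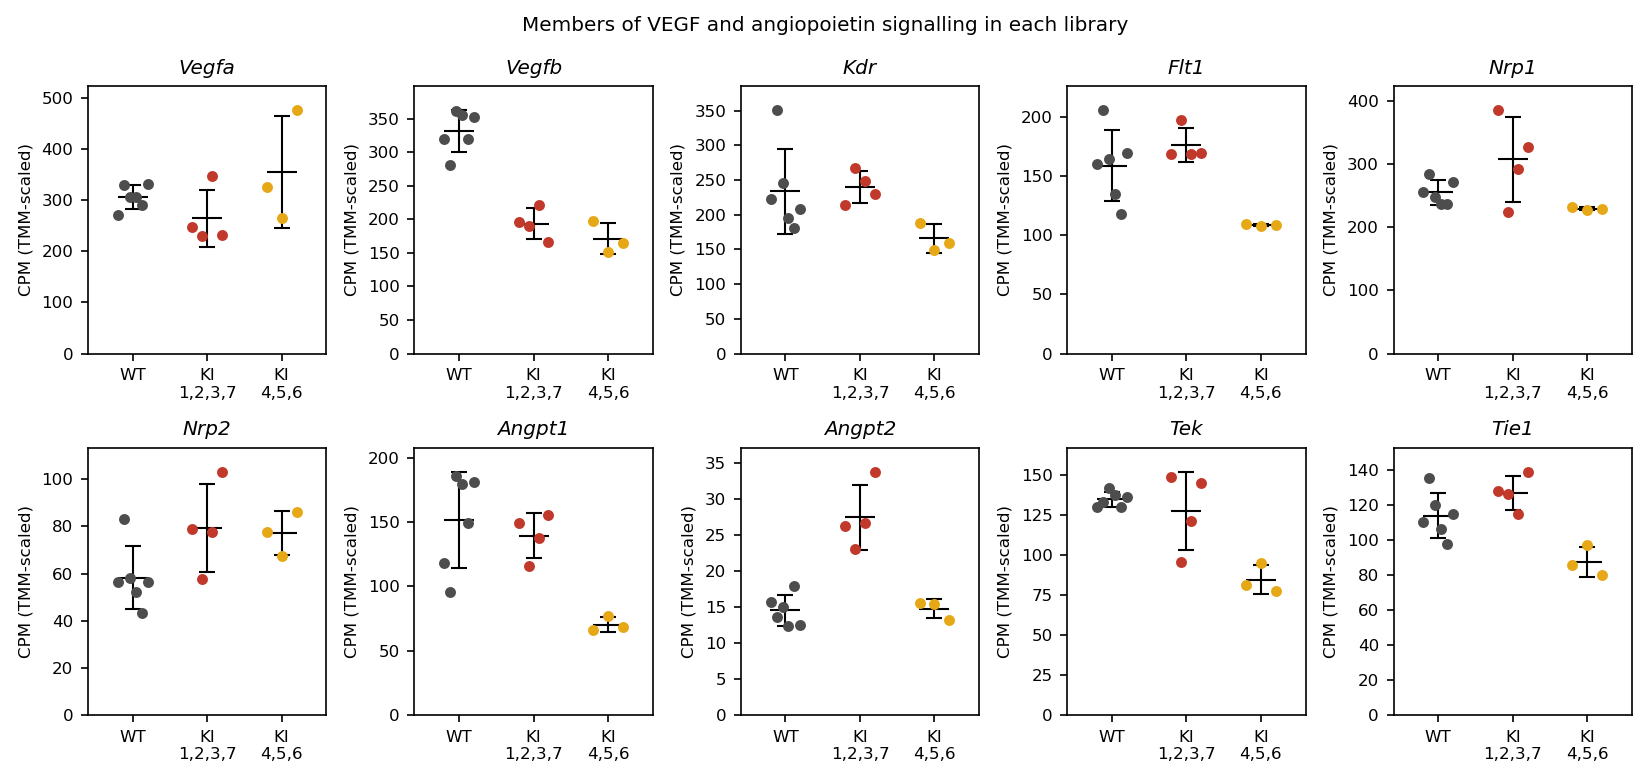
Level of each member in CPM after TMM scaling (y axis, from 0) in wild type (WT, n = 6), knock-in 1, 2, 3 and 7 (KI, n = 4) and knock-in 4, 5 and 6 (n = 3). Points are libraries, and bars are mean ± SD. Vegfb is below every wild-type library in all 7 knock-in libraries, and Angpt2 is above all of them only in knock-in 1, 2, 3 and 7, at 23.1 to 33.8 CPM.

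Among the ligands of VEGF receptors, Vegfb, which binds Flt1 and neuropilin 1 and has been linked to fatty acid handling and coronary vessels, fell. It was at 281 to 362 CPM in wild type, with a median of 336 CPM. In knock-in 1, 2, 3 and 7 it was at 195, 191, 222 and 166 CPM, and in knock-in 4, 5 and 6 at 197, 152 and 165 CPM. The groups did not overlap on CPM with 13 or with 10 libraries. By edgeR the knock-in to wild-type difference was -0.85 ± 0.11 on the log2 scale with 13 libraries (SE, adjusted p = 5.65e-05) and -0.78 ± 0.11 with 10 (adjusted p = 0.000105). Of all tested genes 10.5% were lower with no overlap with 13 libraries and 15% with 10. The fall kept its call in all 23 alternatives with 13 libraries and all 20 with 10, with log2 fold changes from -0.90 to -0.43 and from -0.85 to -0.38. Among the 6 libraries with high Xist it was -0.79 (adjusted p = 0.00364, edgeR), a comparison added after seeing the data. The cardiomyocyte marker sum fell in the same libraries, and its part in the fall of Vegfb was not tested. In bulk tissue, fewer cells of a type and less RNA per cell cannot be told apart.

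Vegfa, the main angiogenic ligand and the one that binds Kdr, was not called. It was at 271 to 331 CPM in wild type (median 306 CPM). In knock-in 1, 2, 3 and 7 it was at 247, 231, 348 and 233 CPM, and in knock-in 4, 5 and 6 at 326, 265 and 476 CPM. Knock-in libraries thus lay on both sides of the wild-type range on CPM, whereas on TPM none lay below it. The log2 difference was -0.01 ± 0.16 (SE, adjusted p = 0.957, edgeR) with 13 libraries and -0.21 ± 0.12 (SE, adjusted p = 0.182) with 10. Without knock-in 3 the 10 libraries gave -0.37 (adjusted p = 0.0107), a call resting on 3 knock-in libraries. Its sign also depended on the scaling, with 0.23 with library totals and 13 libraries.

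The receptors Kdr (VEGF receptor 2, the main signalling receptor) and Flt1 (VEGF receptor 1, which also has a soluble form that traps ligand) were not called in either set. Kdr was at 181 to 351 CPM in wild type, the highest value being wild type 2, and at 149 to 268 CPM in knock-in. Flt1 was at 118 to 205 CPM in wild type and 108 to 197 CPM in knock-in. The ranges overlapped for both, and in both genes the values of knock-in 4, 5 and 6 were below those of the other knock-in libraries. Log2 differences with 13 libraries were -0.17 ± 0.17 for Kdr and -0.11 ± 0.17 for Flt1 (SE), and 0.04 ± 0.16 and 0.15 ± 0.13 with 10. Kdr was at 189, 149 and 160 CPM in knock-in 4, 5 and 6, and Flt1 at 109, 108 and 109 CPM. Both signs turn with library totals and 13 libraries (0.07 and 0.13), and with 10 libraries Flt1 was then called (0.39, adjusted p = 0.0327, edgeR).

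Of the neuropilins, Nrp2, the co-receptor of venous and lymphatic endothelium, was called higher by a small margin with 13 libraries. It was at 43.4 to 83.2 CPM in wild type (median 56.5 CPM), again with wild type 2 the highest. In knock-in 1, 2, 3 and 7 it was at 78.8, 57.5, 77.8 and 103.2 CPM, and in knock-in 4, 5 and 6 at 77.7, 67.5 and 86.3 CPM. The groups overlapped through wild type 2 and knock-in 2. By edgeR the log2 difference with 13 libraries was 0.43 ± 0.15 (SE, adjusted p = 0.0357). That call did not hold without wild type 1 (adjusted p = 0.0615), 4 (0.0547) or 5 (0.0598), without knock-in 6 (0.0538) or 7 (0.0671), and with an indicator for knock-in 4, 5 and 6 (0.0523). With 10 libraries it was 0.45 ± 0.17 (SE, adjusted p = 0.0522), and Nrp2 was called in 8 of 20 alternatives. These were without wild type 2 (0.57, adjusted p = 0.00517) or knock-in 2 (0.56, adjusted p = 0.0153) and among the high-Xist libraries (0.76, adjusted p = 0.00460). The others were DESeq2 (adjusted p = 0.0395), library totals (0.0146, edgeR), limma-voom (0.00433), and limma on log2(TPM + 1) (0.00679) and log2(TPM + 0.1) (0.00703). Summed TPM of 6 lymphatic endothelial markers was 106 to 127 in wild type and 236 to 742 in knock-in, and that of 6 venous markers 65.9 to 89.4 and 113.7 to 209. Of the 6 lymphatic markers 4 were called higher with 13 libraries and 5 with 10, and 1, Prox1, was called lower in both sets. The part of both marker sums in the level of Nrp2 was not tested.

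Nrp1, the more abundant neuropilin, was at 236 to 285 CPM in wild type. It was at 385, 224, 293 and 327 CPM in knock-in 1, 2, 3 and 7 and at 232, 228 and 229.6 CPM in knock-in 4, 5 and 6. The 3 high-Xist knock-in libraries lay above every wild-type library on CPM and on TPM. The other 4 lay below every one on CPM, and on TPM (52.5, 57.2, 63.9 and 63.9 in knock-in 2, 4, 5 and 6) within the wild-type range of 40.7 to 64.2. The log2 difference was 0.10 ± 0.14 (SE, adjusted p = 0.564, edgeR) with 13 libraries and 0.27 ± 0.13 (SE, adjusted p = 0.108) with 10. Among the high-Xist libraries it was 0.45 (adjusted p = 0.0307), and without knock-in 2 the 10 libraries gave 0.38 (adjusted p = 0.0153). Nrp1 was also called with 10 libraries under library totals (0.52, adjusted p = 0.00718) and limma-voom (0.39, adjusted p = 0.0121), and with 13 under limma-voom (0.33, adjusted p = 0.0190). On log2(TPM + 1) it was called in both sets, at 0.50 (adjusted p = 0.0110, limma) and 0.62 (adjusted p = 0.00333). In the 6 libraries with high Xist 4 members were called, Vegfb lower and Nrp1, Nrp2 and Angpt2 higher, against 34.1% of all 14578 genes tested there.

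**Figure D2:**
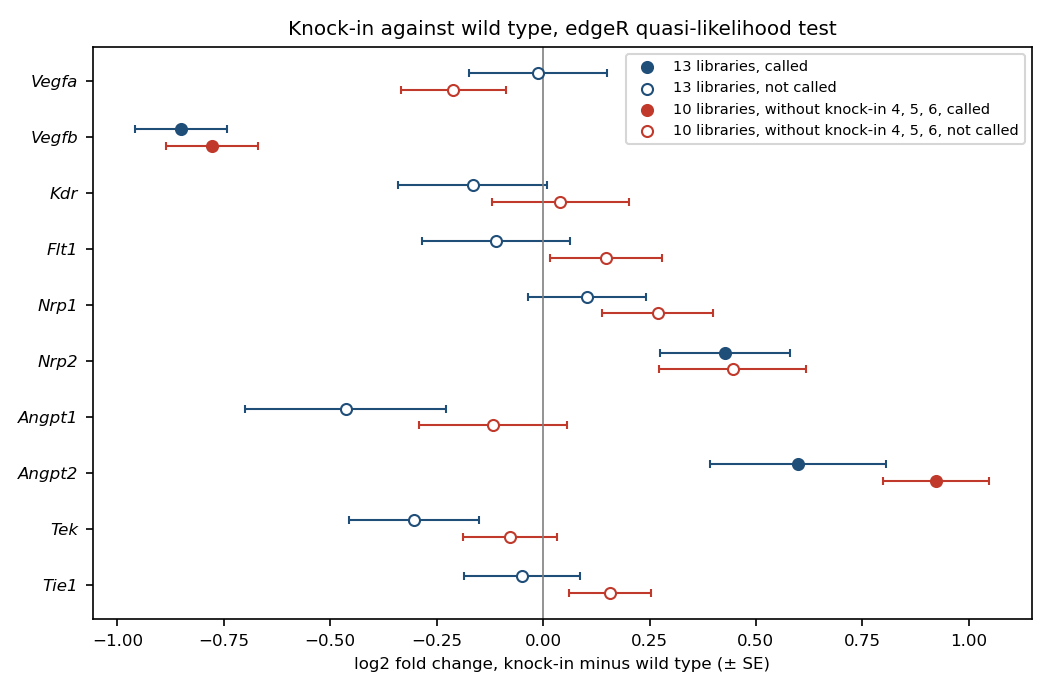
Log2 fold change of each member, knock-in minus wild type (x axis), with its SE as bars, for 13 libraries (blue) and 10 libraries (red). Filled points passed an adjusted p of 0.05. Vegfb is at -0.85 and -0.78 and Angpt2 at 0.60 and 0.92, and the open points of Kdr, Flt1, Nrp1, Angpt1, Tek, Tie1 and Vegfa lie between -0.46 and 0.27.

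Angpt2, the angiopoietin of endothelial cells, was the least abundant member and rose. In wild type it was at 12.4 to 17.9 CPM (median 14.3 CPM). In knock-in 1, 2, 3 and 7 it was at 26.4, 23.1, 26.7 and 33.8 CPM, and in knock-in 4, 5 and 6 at 15.6, 15.4 and 13.3 CPM. The first 4 lay above every wild-type library and the other 3 within the wild-type range. On TPM those 3 were above it as well, at 6.39, 7.20 and 6.08 TPM against at most 5.13 TPM in wild type. The general rise of genes on TPM in knock-in was not separated from this. With 10 libraries edgeR gave 0.92 ± 0.12 on the log2 scale (SE, adjusted p = 8.44e-05), a 1.90-fold rise, where 14.8% of tested genes were higher with no overlap. It kept its call in all 20 alternatives, at 0.78 to 1.29, and was 0.90 (adjusted p = 0.00359) among the high-Xist libraries. With all 13 the estimate was 0.60 ± 0.21 (SE, adjusted p = 0.0303), and leaving out knock-in 1, 3 or 7 ended the call (0.0517, 0.0515 and 0.0584).

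Angpt1, the activating ligand, was not called. It was at 95.7 to 186 CPM in wild type (median 164 CPM). In knock-in 1, 2, 3 and 7 it was at 149, 115.5, 137.5 and 155.5 CPM and in knock-in 4, 5 and 6 at 65.9, 76.7 and 68.3 CPM. Those 3 were below all other libraries on CPM, while on TPM knock-in 5 (30.6 TPM) was within the wild-type range, whose lowest value was 30.4 TPM. The log2 difference was -0.46 ± 0.24 (SE, adjusted p = 0.122, edgeR) with 13 libraries and -0.12 ± 0.17 (SE, adjusted p = 0.611) with 10. An exon of Angpt1 overlaps one of Gm17473 on the opposite strand by 653 bases in an older annotation (GENCODE M21, GRCm38), so its reads could be shared, though all its read numbers were whole. For the other 9 members no such overlap was found.

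The balance of both angiopoietins separated the groups on a scale that does not depend on how libraries are normalised. The ratio of Angpt2 to Angpt1 TPM was 0.158, 0.166, 0.0922, 0.0808, 0.140 and 0.0807 in wild type 1 to 6. It was 0.207, 0.238, 0.231 and 0.240 in knock-in 1, 2, 3 and 7, and 0.274, 0.235 and 0.220 in knock-in 4, 5 and 6. The groups did not overlap, with means of 0.119 ± 0.0395 (SD, n = 6) and 0.235 ± 0.0208 (SD, n = 7). On CPM the 2 sets of knock-in libraries reached this differently. In knock-in 1, 2, 3 and 7 Angpt2 was above the wild-type range and Angpt1 within it. In knock-in 4, 5 and 6 Angpt2 was within it (13.3 to 15.6 CPM) and Angpt1 below it (65.9 to 76.7 CPM, against at least 95.7 CPM). Relative to Angpt1, 7.54% of all tested genes had groups that did not overlap with 13 libraries and 10.6% with 10. Angpt2 relative to Tek did not overlap either, at 0.122 to 0.185 in wild type and 0.219 to 0.324 in knock-in, where 16.7% of genes relative to Tek did not overlap with 13 libraries and 19.9% with 10. These 6 ratios were chosen with the members' values known and were not tested. Vegfb to Vegfa was 2.64 to 3.65 in wild type and 1.05 to 2.65 in knock-in and overlapped only through wild type 2 and knock-in 2. Relative to Vegfa, 7.76% of genes had no overlap with 13 libraries and 14.7% with 10. Flt1 to Kdr (0.515 to 0.711 and 0.511 to 0.692), Nrp2 to Nrp1 (0.159 to 0.260 and 0.184 to 0.339) and Tie1 to Tek (0.890 to 1.22 and 1.04 to 1.62) overlapped as well.

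**Figure D3:**
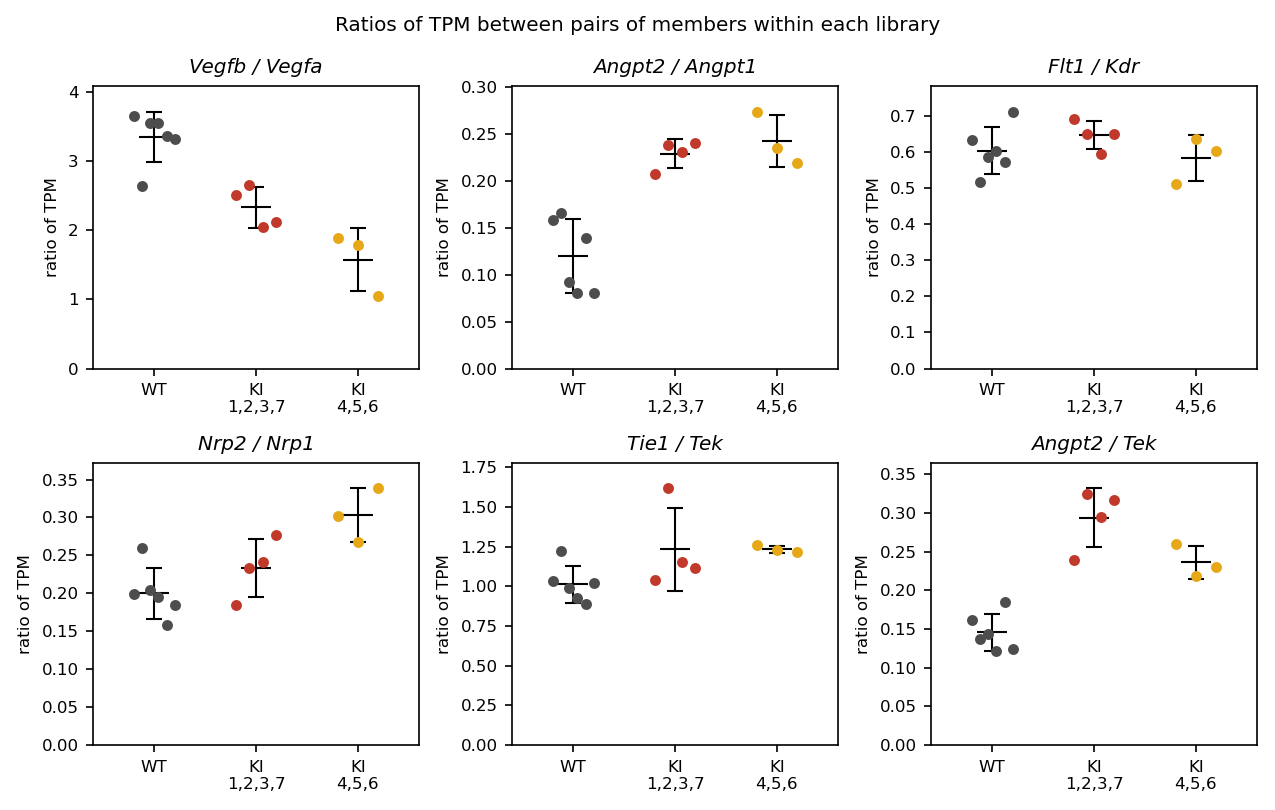
Ratio of TPM between members within a library (y axis, from 0), by the same 3 sets of libraries, with mean ± SD. Angpt2 to Angpt1 is at most 0.166 in wild type and at least 0.207 in knock-in, and Flt1 to Kdr overlaps between the sets.

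The angiopoietin receptor Tek and its relative Tie1, a co-receptor that modulates Tek, were not called in either set. Tek was at 129.6 to 142 CPM in wild type, a narrow range. It was at 148, 95.7, 121 and 144 CPM in knock-in 1, 2, 3 and 7 and at 81.1, 94.8 and 77.6 CPM in knock-in 4, 5 and 6, so knock-in libraries lay above and below it. The log2 difference was -0.30 ± 0.15 (SE, adjusted p = 0.114, edgeR) with 13 libraries and -0.08 ± 0.11 (SE, adjusted p = 0.600) with 10. Tek was called with 13 libraries when knock-in 1 (-0.39, adjusted p = 0.0391) or knock-in 7 (-0.38, adjusted p = 0.0470) was left out, and in the model holding Xist (-0.36, adjusted p = 0.0481). Tie1 was at 97.3 to 135 CPM in wild type and 79.9 to 139 CPM in knock-in, with log2 differences of -0.05 ± 0.14 and 0.16 ± 0.10 (SE). Knock-in 4, 5 and 6 were below the wild-type range of Tie1 on CPM but not on TPM. With 10 libraries Tie1 was called higher under library totals (0.40, adjusted p = 0.00884, edgeR) and on log2(TPM + 1) (0.54, adjusted p = 0.00288, limma) and log2(TPM + 0.1) (0.56, adjusted p = 0.00264).

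On a scale per length, the order of the members in wild type was Vegfb (380 ± 28.3 TPM), Vegfa (115 ± 16.1), Nrp1 (49.0 ± 8.11), Kdr (43.9 ± 16.5), Angpt1 (40.3 ± 8.28), Tie1 (32.1 ± 6.77), Tek (31.4 ± 3.16), Flt1 (25.9 ± 7.38), Nrp2 (10.02 ± 3.48) and Angpt2 (4.55 ± 0.644), as mean ± SD with n = 6. Ranges of neighbours from Nrp1 to Flt1 overlapped, while those of Vegfb and Vegfa, Vegfa and Nrp1, Flt1 and Nrp2, and Nrp2 and Angpt2 did not. In knock-in the order differed in the places of Angpt1 and Tie1, which overlapped in both groups. Vegfb remained first at 282 ± 28.3 TPM (SD, n = 7) and Angpt2 last at 9.31 ± 3.19 TPM.

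Most members are genes of endothelial cells, so their level was set beside that of other endothelial genes. The 13 pan-endothelial markers summed to 547 to 883 TPM in wild type, 941 to 1228 TPM in knock-in 1, 2, 3 and 7 and 661 to 793 TPM in knock-in 4, 5 and 6. With TMM scaling 0 of the 13 markers were called with 13 libraries (edgeR; 0 at an unadjusted p under 0.05 and 0 by DESeq2). With 10 libraries 6 rose, the largest being Eng (0.71), Clec14a (0.57) and Emcn (0.52) on the log2 scale. These 3 were chosen after their values were seen. Relative to the marker sum, Tek was at 4.14 to 5.42 TPM per 100 marker TPM in wild type and at 3.87, 2.65, 3.85 and 3.89 in knock-in 1, 2, 3 and 7. Tie1 was at 4.47 to 5.06 and at 4.04, 4.29, 4.44 and 4.34. With 10 libraries Vegfb, Tek and Tie1 were thus lower with no overlap, 3 of 10 members, and 32.4% of all tested genes did not overlap on this scale. With 13 libraries 0 members were without overlap, against 13.9% of genes. Angpt2 was at 0.570 to 0.928 in wild type and 0.858 to 1.23 in knock-in 1, 2, 3 and 7, so it overlapped on this scale through wild type 5.

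**Figure D4:**
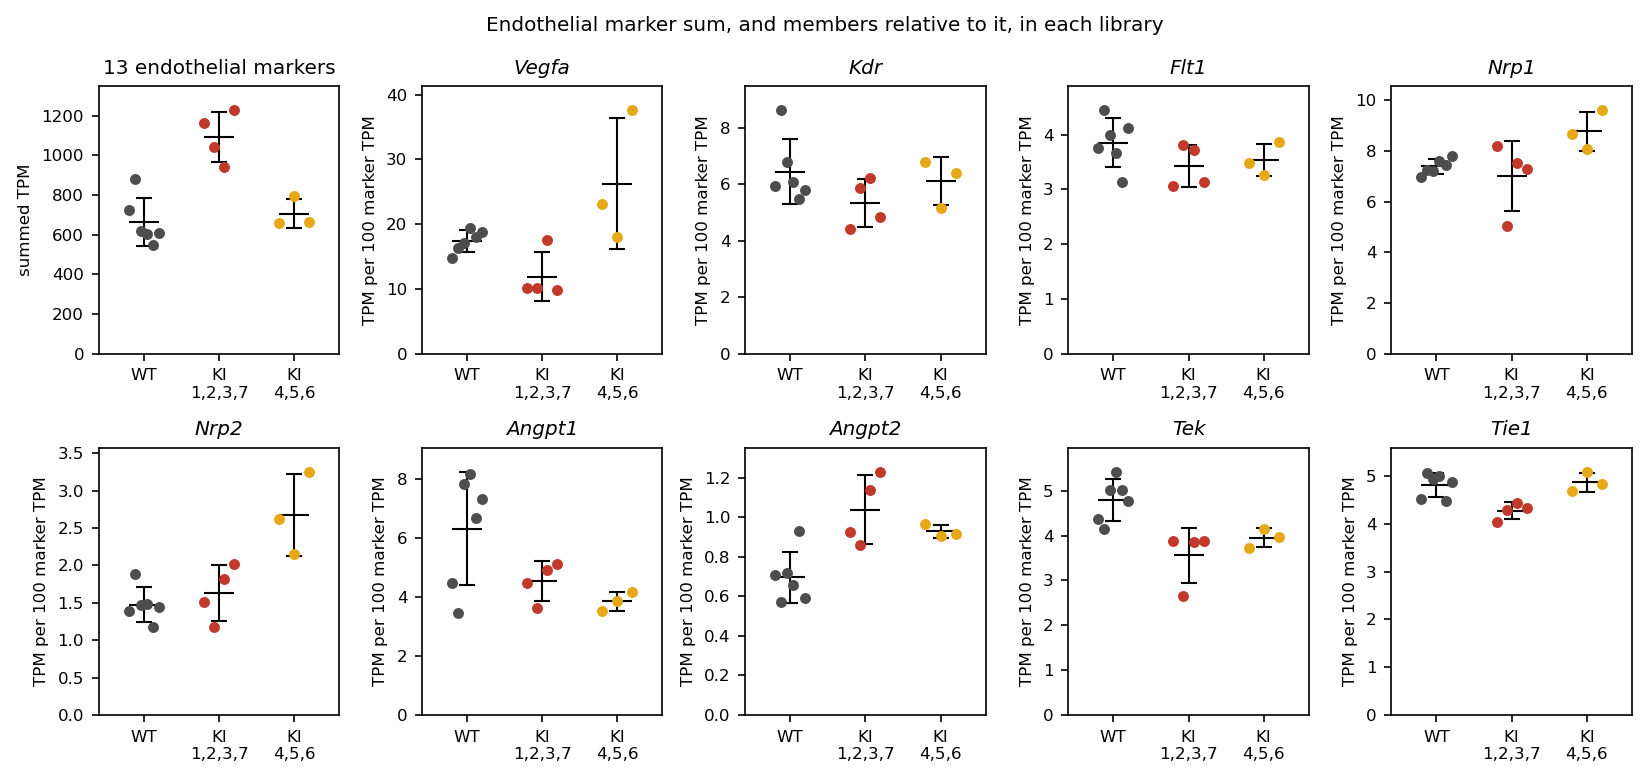
Summed TPM of 13 endothelial markers (first panel) and TPM of the members other than Vegfb per 100 TPM of these markers (other panels, y axes from 0), by the same 3 sets, with mean ± SD. The marker sum is 941 to 1228 in knock-in 1, 2, 3 and 7 and at most 883 in wild type, and Tek and Tie1 relative to it are lower in those 4 libraries.

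Deviations from the mean of each set (wild type; knock-in 1, 2, 3 and 7; knock-in 4, 5 and 6) show which genes varied together over 13 libraries, which share depth and scaling. Kdr and Flt1 had r = 0.85, Nrp1 and Tek 0.79, Flt1 and Tie1 0.72 and Kdr and Angpt1 -0.69, while Angpt1 and Angpt2 had 0.06. Among 11576 genes, those most like Kdr were Golga2 (r = 0.95), the Notch ligand Jag2 (0.94) and the chemokine Cxcl12 (0.93). Those most like Angpt2 were Ecm2 (0.95), Skap2 (0.86) and Phf11d (0.85). Vegfa was most like Aars2 (0.95), Bcs1l (0.94) and Cluh (0.94), and Angpt1 most like Rarres2 (0.92), Wwc1 (0.92) and Dnajc24 (0.92). These are the top 3 of 11576 correlations for each gene over only 13 libraries, so high values can arise without any relation. None was tested.

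Of 14 other ligands, receptors and partners of the pathway, most of those called were higher. With 13 libraries 8 of them rose and 1 fell, with 10 it was 9 and 1, at median log2 fold changes of 0.66 and 0.64, where 23.6% and 22.3% of all tested genes rose. Vegfd, a ligand of the lymphatic receptor Flt4, rose from 4.85 ± 0.712 to 15.5 ± 5.29 CPM (SD, n = 6 and 7), or 1.68 ± 0.22 on the log2 scale (SE, adjusted p = 7.52e-05, edgeR) and 2.00 with 10 libraries. Svep1, a matrix protein reported to bind Tie1, rose from 17.8 ± 1.90 to 61.2 ± 18.9 CPM (1.78 ± 0.19 SE, adjusted p = 1.47e-05; 2.06 with 10). The integrin subunit Itgav rose by 0.69 and 0.59. These 3 genes were named for the smallest p in this same comparison, so their separation adds no support. Their groups did not overlap in either set, where 8.6% and 14.8% of all tested genes were higher with no overlap. Flt4 was at 0.97 and 1.25 and the co-receptor glypican Gpc1 at -0.68 and -0.50, both called in both sets. They were named in addition to the 3 with the smallest p. Also called higher in both sets were Angpt4 (1.43 and 1.55, at a mean of 0.79 CPM in wild type), Itga5 (0.92 and 0.69), Ptprj (0.63 and 0.72) and Itgb3 (1.07 and 1.40). Gpc1 was not called lower with library totals and 10 libraries, nor on log2(TPM + 1) in either set.

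Among 12 semaphorins and plexins, ligands and receptors that work with neuropilins, 4 rose with 13 libraries and 5 with 10, and 0 fell in either set (medians 0.38 and 0.35). Over all genes 44.6% were called with 13 libraries and 43.7% with 10, against which the counts of this and the lists that follow are to be read. Sema3f, a ligand of Nrp2, was at 1.30 and 1.00, Sema3d at 1.18 and 1.60 and Plxna1 at 0.45 and 0.49. The call of Plxna1 was lost without knock-in 7 with 10 libraries (0.26, adjusted p = 0.0964, edgeR). Of 20 intracellular effectors the calls were 4 up and 3 down with 13 libraries, 5 up and 3 down with 10 (medians 0.10 and 0.12), that is 7 and 8 of 20 and below the share of all genes. Rcan1, a calcineurin regulator induced by VEGF signalling, rose from 89.2 ± 5.82 to 186.5 ± 40.8 CPM (SD, n = 6 and 7), at 1.06 and 1.18. Egr3, an immediate early factor, was at 1.69 and 1.03, and the adaptor Grb14 fell by 1.02 and 0.83 on the log2 scale.

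Of 20 tip cell and Notch genes the calls were 7 up and 2 down with 13 libraries, 9 up and 2 down with 10 (medians 0.21 and 0.34). Esm1, a secreted proteoglycan of endothelial tip cells, rose from 1.74 ± 0.346 to 7.61 ± 1.94 CPM (SD, n = 6 and 7), or 2.12 ± 0.21 on the log2 scale (SE, adjusted p = 1.17e-05, edgeR) and 2.36 with 10 libraries. It was named for its small p in this comparison. Its groups did not overlap in either set, where 8.6% and 14.8% of all tested genes were higher with no overlap. The netrin receptor Unc5b was at 0.81 and 1.01 and the Notch glycosyltransferase Lfng at 0.87 and 0.93. Apln, the tip cell peptide apelin, went the other way, at -0.55 and -0.52, and with library totals neither it nor Hey2 was called lower with 10 libraries. With library totals and 13 libraries 1 of the 20 genes was called lower, and on log2(TPM + 1) 0 were in either set.

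Of 20 regulators and targets of hypoxia-inducible factors the calls were 7 up and 4 down with 13 libraries, 5 up and 2 down with 10 (medians 0.33 and 0.24), that is 11 and 7 of 20, above the share of all genes with 13 libraries and below it with 10. Adm, the vasodilator peptide adrenomedullin, was at 0.89 and 1.08, the collagen prolyl hydroxylase subunit P4ha1 at 0.92 and 0.93, and the hexokinase Hk2 at -0.96 and -0.84. Of 8 genes of endothelial fatty acid uptake linked to Vegfb 1 rose and 2 fell in both sets. Slc27a3 was at 1.57 and 1.08, the fatty acid translocase Cd36 at -1.09 and -0.81 and the transcription factor Tcf15 at -0.68 and -0.66. Tcf15 kept its call in 20 of 23 alternatives with 13 libraries and in 11 of 20 with 10. In both sets it was not called under library totals (0.0712 and 0.147, adjusted p) or on log2(TPM + 1) (-0.16 and -0.19). With 10 libraries it was also not called with Xist as covariate (0.0664), in the high-Xist libraries (-0.21, adjusted p = 0.280), and without wild type 6 (0.0549) or knock-in 1 (0.0760), 2 (0.0563) or 3 (0.0573). Cardiomyocytes also express Hk2 and Cd36, and the part of their marker sum in these values was not tested.

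**Figure D5:**
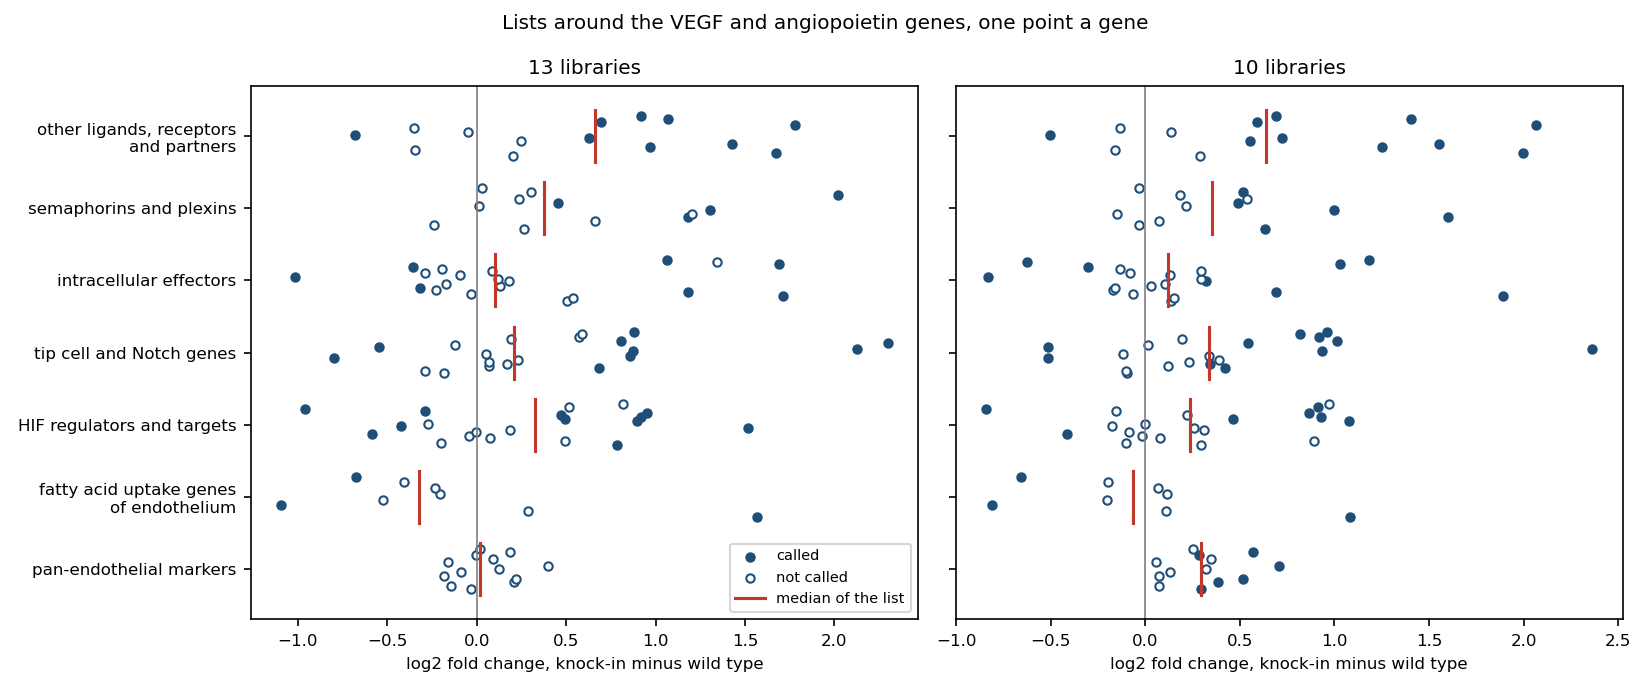
Log2 fold change, knock-in minus wild type (x axis), of each gene in 6 pathway lists and of pan-endothelial markers, with 13 libraries (left) and 10 (right). Filled points passed an adjusted p of 0.05 and red bars are list medians, which lie at 0.66 and 0.64 for the other ligands, receptors and partners.

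Scaling changed the number of calls. With library totals in place of TMM the median of all tested genes was 0.33 and 0.26, and the called genes split into 6110 higher and 1661 lower with 13 libraries, against 3442 and 3060 with TMM (with 10, 6049 and 1528 against 3241 and 3099). Under it 9 and 11 of the 14 ligands, receptors and partners rose, 11 and 12 of the 20 tip cell and Notch genes, and 3 and 11 of the 13 pan-endothelial markers. Vegfb was the only member called lower under that scaling, at -0.60 and -0.53. Members called by setting, each with the share of all genes, were 3 (53.3%) and 6 (52.2%) with library totals, 5 (60%) and 6 (59.7%) with limma on log2(TPM + 1), where 7665 genes rose and 1087 fell with 13 libraries, and 4 (51.9%) and 4 (53%) with limma-voom, for 13 and 10 libraries. The replicate block gave 1 (33.1%) and 2 (19.3%), and the indicator for knock-in 4, 5 and 6 gave 2 (37%).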

How the data were processed

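Poly(A)-enriched stranded libraries of mouse right ventricle were sequenced, per the labels' protocols. DRAGEN and the build GRCm39 (mm39) are named in the submitters' processing notes. The annotation and how strand was counted are not given in the sources used. The authors deposited, for each library, estimated counts per gene, TPM and a length, per the file headers. Estimated counts were rounded, filtered with filterByExpr, scaled by TMM and tested with edgeR 4.0.16 (R 4.3.3, quasi-likelihood F test, robust, no covariate, Benjamini-Hochberg adjustment over all tested genes, threshold 0.05), for 13 libraries and for 10 without knock-in 4, 5 and 6. SE is the log2 fold change over the root of the F statistic. Printed CPM are scaled by the TMM factors of the 13 libraries, and log2 CPM used a prior count of 2. Overlap of CPM with 10 libraries was judged on CPM scaled by the TMM factors of those 10. The test was checked on simulated counts. The members and the 20 lists (6 pathway, 14 cell type) were chosen with earlier results of these data known. The rule named the members, Dsg2, the 3 called genes with the smallest p in each pathway list and the 3 genes most like Vegfa, Kdr, Angpt1 and Angpt2, with a mean of at least 5 CPM. Alternatives were DESeq2 (1.42.0) and its size factors, library totals, limma (3.58.1) with voom and on log2(TPM + 1) or log2(TPM + 0.1), no filter, a replicate block, Xist as a covariate, an indicator for knock-in 4, 5 and 6 and each library left out. The replicate block used only libraries whose number occurs in both groups. The comparison within the 6 high-Xist libraries was added after seeing the data. The labels state no pairing by replicate number, and the main test used none.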

Additional observations from a re-analysis of the deposited data

Results flagged for a closer look

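Of 48 sets of values screened (the 10 members and 6 ratios, each in wild type, in knock-in and in knock-in 1, 2, 3 and 7), 5 held a library far from the others, where chance gives about 5% of sets. Vegfa was at 348 CPM in knock-in 3, with the nearest of the other 3 knock-in libraries at 247 CPM. Flt1 was at 197 CPM in knock-in 2, with the nearest at 169 CPM. Nrp2 was at 83.2 CPM in wild type 2, with the nearest wild-type library at 58.2 CPM. The Vegfb to Vegfa ratio was 2.64 in wild type 2, with the nearest at 3.32. The Tie1 to Tek ratio was 1.62 in knock-in 2, with the nearest knock-in library at 1.26. Wild type 2 and knock-in 2 each account for 2 of these 5 values.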

How the results depend on the processing

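With 13 libraries, 3 members were called and 2 to 3 when each library was left out in turn. With 10 libraries 2 were called and 2 to 4 when each was left out. With 13 libraries 5 members were called with limma on log2(TPM + 1) and 5 with log2(TPM + 0.1), and 1 with the replicate block. With 10 libraries 6 were called with library totals, 6 with log2(TPM + 1), 6 with log2(TPM + 0.1), 4 with limma-voom, 4 without knock-in 2 and 4 in the high-Xist libraries. Tie1 with 13 libraries turned to 0.36 with log2(TPM + 1) (adjusted p = 0.0495) and to 0.37 under the smaller pseudocount (adjusted p = 0.0474), where the median of all tested genes was 0.38 with log2(TPM + 1). The cause of these shifts was not tested. Vegfb kept its call under every alternative run, and Angpt2 with 10 libraries. With the replicate block, 2776 genes were called with 10 libraries against 6340, from 6 libraries that share numbers. In the set of 13 the block left out knock-in 7, which has no wild-type library of its number. Nrp2 (adjusted p = 0.106, edgeR) and Angpt2 (adjusted p = 0.0783) then lost their calls. Leaving out knock-in 7 without a block also ended both calls (0.0671 and 0.0584), so these losses cannot be laid to the block. Same-numbered libraries correlated at r of -0.113 to 0.0845 in their deviations from group means. The best-matching knock-in library of each wild-type library reached only 0.0665 to 0.146, so this check cannot decide whether libraries are paired. The labels state no pairing. All 10 members had at least 195 reads in every library, so counting depth limits them less than the spread between libraries.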

Other observations

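Arterial, venous and lymphatic markers were called mostly higher in knock-in. Of 7 arterial markers 4 rose in both sets (medians 0.64 and 0.71). Of 6 venous markers 5 rose with 13 libraries and 6 with 10 (0.91 and 0.86), and of 6 lymphatic markers 1, Prox1, fell in both sets while 4 rose with 13 libraries and 5 with 10 (0.99 and 1.32). Of 7 capillary markers 0 rose and 2, Car4 and Aqp1, fell in both sets (-0.43 and -0.16), and of 5 endocardial markers 3 rose with 10 libraries and 0 were called with 13 (edgeR; 1 at an unadjusted p under 0.05 and 1 by DESeq2). With library totals the capillary calls were 0 up and 2 down with 13 libraries and 1 up and 1 down with 10 (-0.20 and 0.06). On log2(TPM + 1) they were 1 up and 1 down with 13 and 1 up and 0 down with 10. Endocardial markers rising with library totals were 2 with 13 and 5 with 10.

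Among perivascular and other cells, the calls for 9 pericyte markers were 2 up and 3 down with 13 libraries, 1 up and 2 down with 10, and 3 of 6 smooth muscle markers rose in both sets. Of 7 fibroblast markers 1 rose with 13 libraries and 5 with 10, and of 7 macrophage markers 5 and 7. These counts depend on the scaling. With library totals 5 fibroblast markers rose with 13 libraries and 7 with 10, and 7 macrophage markers in both sets. Pericyte calls were then 4 up and 1 down in both sets. Summed TPM of the fibroblast markers was 2340 to 3102 in wild type and 3450 to 6053 in knock-in. All 5 proliferation markers rose in both sets, and 0 of 5 adipocyte markers were called in either (edgeR; 0 at an unadjusted p under 0.05 and 0 by DESeq2). Of 3 tested epithelial markers 3 rose with 13 libraries and 0 with 10 (1 at an unadjusted p under 0.05 and 1 by DESeq2).

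The transcript length that the files give per gene differed between libraries for 45.5% of tested genes, 7 members among them. For Nrp2 it was 6360 to 6519 bases in wild type and 6231 to 6362 in knock-in. The ranges overlapped and the difference was not tested, and 1.55% of the genes with differing lengths had groups that did not overlap.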
